A study of Homo sapiens with 3 samples.

Results

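The 8 genes described are the cyclins and cyclin-dependent kinases (CDKs) of the G1 phase, namely the D-type cyclins CCND1, CCND2 and CCND3, the E-type cyclins CCNE1 and CCNE2, and the kinases CDK2, CDK4 and CDK6. They were chosen by name, and each was found on the arrays through the transcript accession of its probes. The 8 genes were carried by 9 probes, out of 19699 genes that could be named on the array.

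The samples were cultures of PANC-1, an established line of human pancreatic carcinoma, with 1 control culture, 1 given 20 µM cantharidin and 1 given 20 µM okadaic acid (OA), both for 24 h. Cantharidin is a small molecule from blister beetles and OA a polyether toxin first isolated from sponges, and both inhibit protein phosphatase 2A (PP2A). A vehicle for the control is not given in the labels, and all samples were of the same line. Total RNA was labelled with Cy3 and hybridised to a 1-colour Agilent array, 1 array per culture, so no difference given here has a replicate check and no test between groups was possible.

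Progress through G1 is driven by kinases that are active only when bound to a cyclin. D-type cyclins pair with CDK4 and CDK6 and begin the phosphorylation of the retinoblastoma protein RB, which releases E2F transcription factors, and E-type cyclins then pair with CDK2 to complete that step and to start DNA replication. In pancreatic carcinoma the brake on CDK4 and CDK6 that CDKN2A encodes is commonly lost.

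A signal is given first as the processed intensity, in array units. For comparison between arrays, the log2 intensity was set relative to the 75th percentile of its own array, which stood at an intensity of 784 for control, 713 for cantharidin and 936 for OA. A gene was called higher or lower when its scaled signals differed by at least 1.5-fold, the threshold of the study's array analysis, and "within" otherwise. A spot is called well above background when the scanner software marked it so, and the lowest such signal, the floor of the array, was 35.0 in control, 21.9 with cantharidin and 58.0 with OA. Of 34041 probes, between 23071 and 25103 were well above background per array, and no spot was saturated. Of 7 markers of pancreatic carcinoma epithelium and of this line, 6 were well above background on all 3 arrays, and the seventh, CDH1 (E-cadherin), in control alone. Of 17 markers of leukocytes, endothelium, fibroblasts and normal pancreas, 11 were well above background on all 3 arrays and 5 on none. Their summed intensities were 8034 in control, 5876 with cantharidin and 15638 with OA, against at least 458169 for the 7 markers above. VIM (vimentin), which is not specific to epithelium, gave 311685 of the latter sum in control. The part of the 17 markers in the results was not tested.

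Against control, 6 of the 8 genes had a lower signal with cantharidin past 1.5-fold, CCND2 alone had a higher one and CCNE1 was within the threshold. With OA, CCND3 and CCNE1 were higher, CDK2 and CDK4 were lower, and the other 4 genes were within the threshold. The CDK2 and CDK4 signals were thus lower with either agent, while CCND3 lay on opposite sides of control. The plot of probe intensities shows each of these values.

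**Figure D1:**
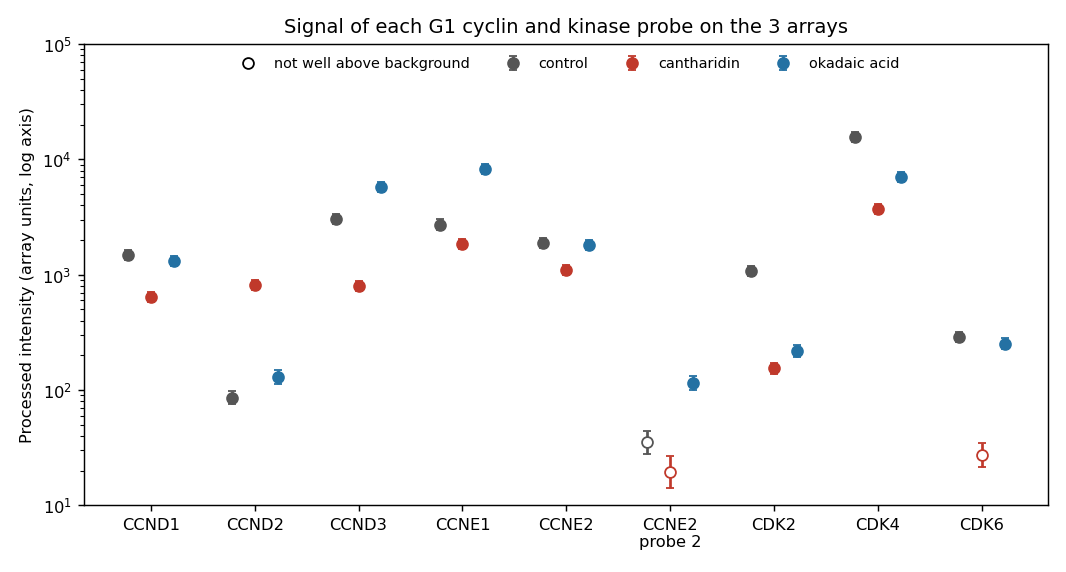
Processed intensity of each of the 9 probes (log axis, array units) on the control, cantharidin and OA arrays, 1 array each; bars are the scanner software's own error and open circles were not well above background. Points are to be compared within a probe, not between probes: CCND2 is highest with cantharidin (820), whereas the CDK2, CDK4 and CDK6 signals are lowest there.

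The RefSeq promoter table (GRCh38.p14) held 4 of the 8 genes, CCND3, CCNE1, CDK4 and CDK6. The 250 bases before the transcript start of CCNE1 and CDK4 are printed, since these genes lay on opposite sides of control with OA, together with those of CDK6, whose signal with cantharidin was not well above background. Capitals mark each match to the GC box GGGCGG, the core of Sp1 binding sites, on either strand (CCGCCC on the other). CCNE1 is at chr19:29811741-29811990 on the plus strand, CDK4 at chr12:57752311-57752560 on the minus strand and the first start of CDK6 at chr7:92836574-92836823 on the minus strand, and each is written 5′ to 3′ along its gene.
CCNE1: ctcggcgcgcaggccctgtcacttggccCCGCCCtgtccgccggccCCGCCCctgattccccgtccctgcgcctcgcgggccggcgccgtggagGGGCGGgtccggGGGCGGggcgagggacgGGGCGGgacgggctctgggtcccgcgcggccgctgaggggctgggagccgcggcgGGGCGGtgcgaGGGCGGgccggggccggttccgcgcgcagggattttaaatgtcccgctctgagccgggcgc
CDK4: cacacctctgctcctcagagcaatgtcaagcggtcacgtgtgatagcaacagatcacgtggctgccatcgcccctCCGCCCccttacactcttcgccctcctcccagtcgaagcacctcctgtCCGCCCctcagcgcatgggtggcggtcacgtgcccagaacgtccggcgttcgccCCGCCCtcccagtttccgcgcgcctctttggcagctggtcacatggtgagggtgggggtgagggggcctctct
CDK6: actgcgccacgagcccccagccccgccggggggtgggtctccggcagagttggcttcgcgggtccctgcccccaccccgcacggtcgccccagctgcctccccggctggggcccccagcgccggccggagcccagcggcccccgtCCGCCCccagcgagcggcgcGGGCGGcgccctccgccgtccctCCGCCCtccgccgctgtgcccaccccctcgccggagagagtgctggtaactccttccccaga
CCNE1 held 7 matches, CDK4 held 3 and CDK6 held 3 here and 0 before its second start. The starts of CCND3 held 5, 2 and 0. At least 1 GC box lay in 42.6% of 35116 promoters of the same length, so the match was common, and genes with it were higher, lower or within the threshold. The E2F motif TTTNGCGC, found in 1.51% of promoters, the AP-1 motif TGANTCA, in 6.57%, and the CRE motif TGACGTCA, in 1.65%, had no match in these windows, which says only that those letters are not there.

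Among the D-type cyclins, CCND1, the cyclin most often amplified in carcinomas, had a signal of 1484 in control, 646 with cantharidin and 1326 with OA. It was 2.09-fold lower with cantharidin (log2 difference of -1.06) and 1.34-fold lower with OA (log2 difference of -0.42), which is within the threshold. Its probe is printed in 10 spots on each array, and these ranged from 1431 to 1535 in control, from 610 to 685 with cantharidin and from 1230 to 1388 with OA. The spots of any 2 arrays therefore did not overlap, before or after scaling. The spots of an array share 1 RNA sample, so this spread measures the array and not the culture.

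CCND2, another D-type cyclin, read 86.0 in control, 820 with cantharidin and 130 with OA. It was 10.5-fold higher with cantharidin (log2 difference of 3.39), and ranked 393 from the highest of the 16644 genes compared. With OA it was 1.26-fold higher (log2 difference of 0.33), within the threshold. The control and OA signals were dim, at 2.46 and 2.23 times the floor of their arrays, whereas the cantharidin signal was 37.5 times the floor. With the normexp background correction, which adds an offset to every signal, the cantharidin difference was smaller at 2.54.

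CCND3, the third D-type cyclin, gave 3055 in control, 803 with cantharidin and 5702 with OA. It was 3.45-fold lower with cantharidin (log2 difference of -1.79) and 1.56-fold higher with OA (log2 difference of 0.64). The 3 arrays thus ranked OA, control, cantharidin for CCND3, and the OA difference lay close to the threshold: at 0.52 with the arrays scaled to their medians, it was no longer called.

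For the E-type cyclins, CCNE1, the activating partner of CDK2 at the start of S phase, measured 2723 in control, 1846 with cantharidin and 8180 with OA. It was 2.52-fold higher with OA (log2 difference of 1.33), the largest OA increase among the 8 genes as represented here, and 1.34-fold lower with cantharidin (log2 difference of -0.42), within the threshold.

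CCNE2, the other partner of CDK2, was read by a pair of probes for the same transcript. The brighter, which represents the gene here, gave 1894 in control, 1101 with cantharidin and 1816 with OA. The gene was 1.56-fold lower with cantharidin (log2 difference of -0.64) and 1.24-fold lower with OA (log2 difference of -0.32), the latter within the threshold. The cantharidin call stood near the threshold. It was lost at -0.57 when the percentile was taken over probes detected on all arrays, and at -0.58 in the authors' deposited values.

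The second CCNE2 probe gave 35.3 in control, 19.6 with cantharidin and 115 with OA, and was well above background with OA alone. It was 2.73-fold higher with OA than in control, measured against a dim control signal. No fold is given for cantharidin against control, where both were dim. The probes disagreed in direction for OA against control, and with the median over both the log2 difference was 0.57 in place of -0.32. Which of them follows the gene was not tested.

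All 3 kinases were lower with cantharidin. CDK2, the partner of the E-type cyclins, read 1081 in control, 154 with cantharidin and 218 with OA. It was 6.39-fold lower with cantharidin (log2 difference of -2.68) and 5.93-fold lower with OA (log2 difference of -2.57). Its probe also has 10 spots per array, of which 9 were unflagged with OA, and they ranged from 1037 to 1120 in control, from 132 to 170 with cantharidin and from 198 to 237 with OA. Both treated arrays were clear of the control spots. Relative to the percentile of its array, the range was -2.43 to -2.07 with cantharidin and -2.24 to -1.98 with OA, so the treated arrays overlapped.

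**Figure D2:**
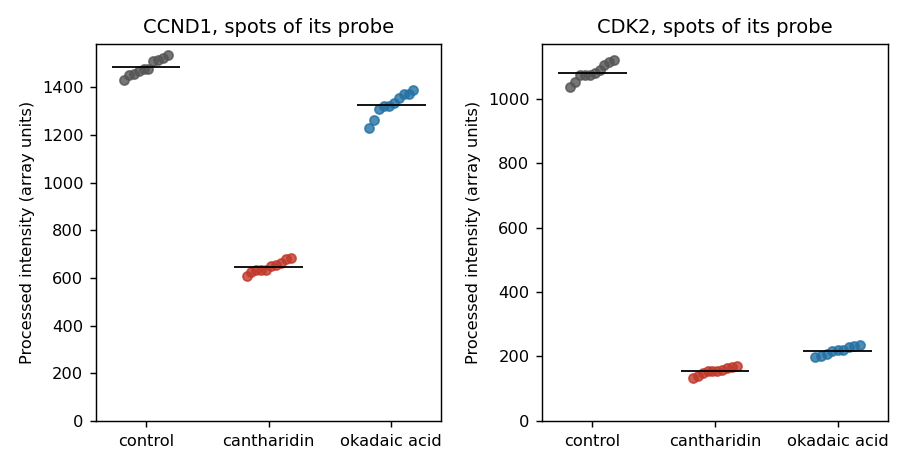
Processed intensity (array units, axis from 0) of each unflagged spot of the CCND1 and CDK2 probes on the 3 arrays; horizontal bars are geometric means. CCND1 spots with OA (1230 to 1388) lie just below control and far above cantharidin, whereas CDK2 spots with cantharidin (132 to 170) and OA (198 to 237) both lie far below control.

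CDK4, a partner of the D-type cyclins, measured 15507 in control, 3733 with cantharidin and 6987 with OA. It was 3.77-fold lower with cantharidin (log2 difference of -1.92) and 2.65-fold lower with OA (log2 difference of -1.41). The CDK4 signal, whose promoter is printed above, was highest in control and lowest with cantharidin, and both calls held under every alternative processing that was run.

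CDK6, the other partner of the D-type cyclins, gave 289 in control, 27.3 with cantharidin and 252 with OA. The cantharidin signal was not well above background, so its 9.62-fold lower value (log2 difference of -3.27) rests on a dim signal and is approximate. With OA, CDK6 was 1.37-fold lower (log2 difference of -0.45), within the threshold. The size of the cantharidin difference hung on the handling of background: with the normexp correction it was -1.47, smaller but still a call.

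Counted together, cantharidin gave 1 higher and 6 lower of 8, or 12.5% and 75%, where 27.5% of all 16644 genes compared were called higher and 34.1% lower. The median log2 difference of the 8 genes was -1.42, against -0.16 over all genes. With OA, 2 of 8 were higher and 2 lower, or 25% each, where 28.1% of 16166 genes were called higher and 28.8% lower. The OA counts were thus near those of all genes, and the median was -0.37 against 0.01. By role, cantharidin gave lower calls for 2 of 3 D-type cyclins, 1 of 2 E-type cyclins and 3 of 3 kinases, and OA for none of the 5 cyclins and 2 of 3 kinases. RNA of a whole culture was measured, so fewer cells in a phase of the cycle and less RNA per cell cannot be told apart.

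The software's own error for a difference between arrays was 0.20 to 0.27 on the log2 scale for differences measured on both arrays, and the spot noise of such a difference had an SD of 0.03 to 0.27. Both cover the array and not the culture. Within the software's error of the 1.5-fold threshold lay CCNE1 and CCNE2 for cantharidin, and CCND1, CCND2, CCND3 and CDK6 for OA. For OA against cantharidin, CCND1 and CDK4 lay within it (log2 differences of 0.64 and 0.51). The side on which these genes fall in those comparisons is therefore not settled by the arrays.

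**Figure D3:**
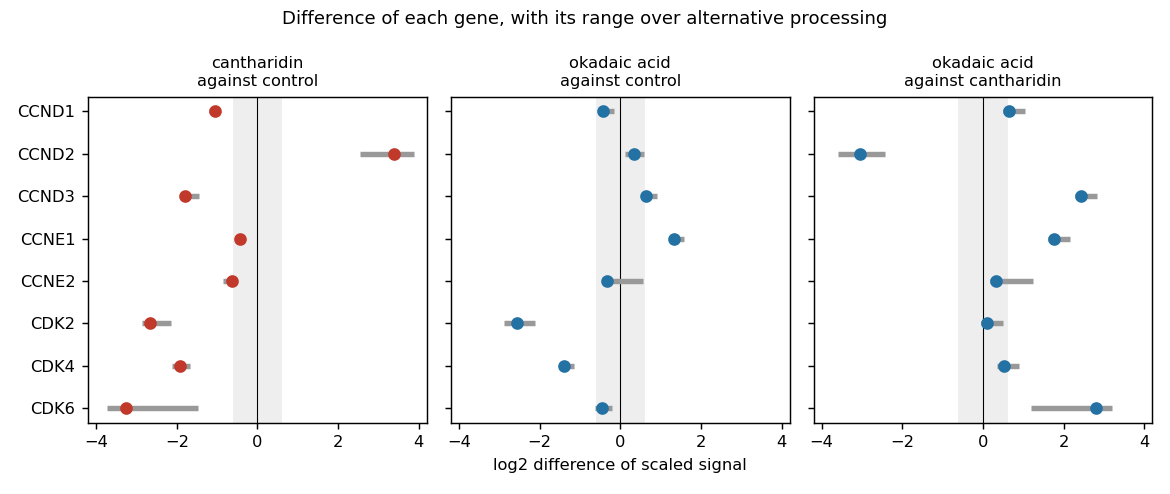
log2 difference of scaled signal for each of the 8 genes in the 3 comparisons; points are the values as reported, grey bars the range over alternative ways of processing, and the shaded band is within 1.5-fold. CDK6 with cantharidin has the widest range of the cantharidin differences (-3.74 to -1.47), and CCNE2 is the gene whose bar for OA against control crosses 0.

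The agents were also compared with each other, which does not use the control array. CCND1, CCND3, CCNE1 and CDK6 were higher with OA than with cantharidin, CCND2 was lower, and CCNE2, CDK2 and CDK4 were within the threshold. Thus 4 of 8 genes, or 50%, were higher and 1 of 8, or 12.5%, lower, where 29.5% of 16200 genes were called higher and 22.3% lower.

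CDK6 was 7.02-fold higher with OA (log2 difference of 2.81), an approximate value against a cantharidin signal not well above background. With the normexp correction the difference was smaller at 1.18. CCND3 was 5.40-fold higher (log2 difference of 2.43) and CCNE1 3.37-fold higher (log2 difference of 1.75). CCND1 was 1.56-fold higher (log2 difference of 0.64), a call that was lost at 0.49 with median scaling and at 0.57 with the normexp correction. Of these 4 genes, 3 are cyclins and CDK6 is a kinase. CCND2 was 8.32-fold lower with OA (log2 difference of -3.06), and ranked 164 from the lowest. CDK4 was 1.42-fold higher (log2 difference of 0.51) and CDK2 1.08-fold higher (log2 difference of 0.11), with the overlapping spots given above.

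Because both differences from control use the same control array, their likeness is not read as a result. Side by side, the values were -1.06 and -0.42 for CCND1, 3.39 and 0.33 for CCND2, and -1.79 and 0.64 for CCND3, cantharidin first. For the E-type cyclins they were -0.42 and 1.33 for CCNE1 and -0.64 and -0.32 for CCNE2. For the kinases they were -2.68 and -2.57 for CDK2, -1.92 and -1.41 for CDK4, and -3.27 and -0.45 for CDK6. The pair of values was most alike for CDK2 and least alike for CCND2.

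**Figure D4:**
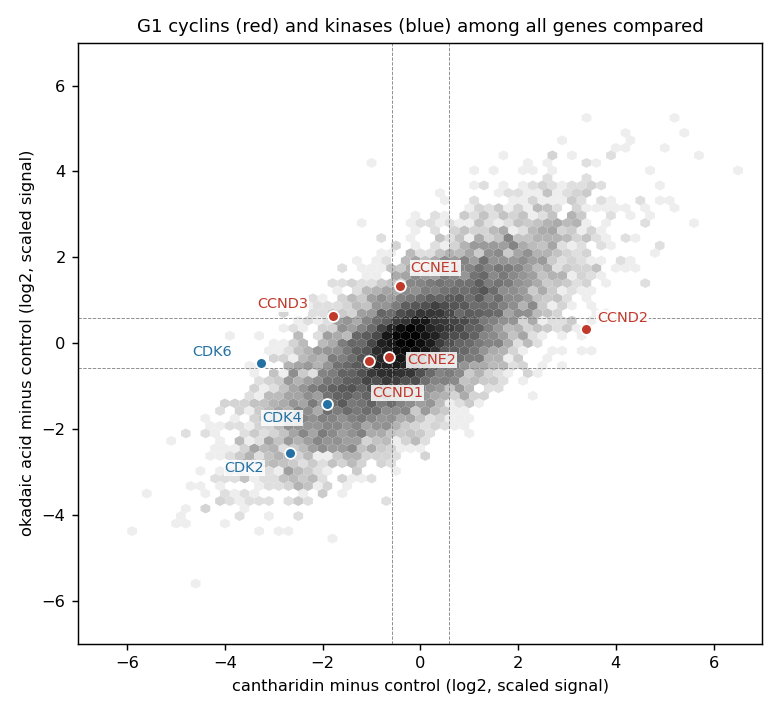
log2 difference from control with cantharidin (horizontal) and OA (vertical) for cyclins (red) and kinases (blue), over all genes compared with both agents (grey, darker where more genes lie); dashed lines mark 1.5-fold. Both axes share the control array, so the tilt of the cloud is not read; CCND2 (3.39 and 0.33), CCND3 (-1.79 and 0.64) and CDK6 (-3.27 and -0.45) lie toward its edges.

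The other genes of the pathway were taken from lists by function. Each gene stood by its brightest probe, and other probes, where present, are not given. The list counts are to be set beside all genes compared, of which 27.5% were called higher and 34.1% lower with cantharidin. With OA these shares were 28.1% and 28.8%. The CDK inhibitors block the kinases described here. Of 7 measured, 1 was higher (14.3%) and 5 lower (71.4%) with cantharidin (median -1.09). With OA, 4 were higher (57.1%) and 2 lower (28.6%, median 0.83). CDKN2A is 1 of those 4, and what its probe reads in these cells was not tested. CDKN2B is among the 2 lower with OA. It read 45.4 in control and 12.2 with OA, the latter not well above background. Against the OA floor it was at least 1.07-fold lower, so this call rests on a dim signal. CDKN1A, which encodes p21, read 255 in control, 2302 with cantharidin and 1691 with OA, 9.93-fold and 5.55-fold higher. CDKN1B, which encodes p27, an inhibitor of cyclin E with CDK2, went the other way, with 5000 in control, 252 with cantharidin and 1373 with OA, 18.0-fold and 4.35-fold lower. CDKN1C, which encodes p57, was 2.04-fold lower with cantharidin and 17.6-fold higher with OA.

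RB and the E2F factors are what the G1 kinases act on. Of 13 genes, 1 was higher (7.69%) and 9 lower (69.2%) with cantharidin (median -0.87). With OA, 1 was higher (7.69%) and 5 lower (38.5%, median -0.39). RBL2, which encodes the RB relative p130, was 4.55-fold lower with cantharidin and 8.26-fold lower with OA. E2F2, an activating E2F, was 13.7-fold and 6.05-fold lower. E2F1, another activating E2F, was 6.66-fold lower with OA. With cantharidin it was 21.3-fold lower, a value that rests on a dim signal not well above background.

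Genes that E2F factors activate for S phase were counted next. Of 21, cantharidin gave 19 lower (90.5%) and 0 higher (median -2.09), and OA 16 lower (76.2%) and 0 higher (median -1.92). The rest were within the threshold, PCNA and CDC6 among those with OA. TYMS, thymidylate synthase, read 57671 in control, 3268 with cantharidin and 4047 with OA, and was 17.0-fold lower with OA. GINS1, a subunit of the replicative helicase, was 17.8-fold and 13.5-fold lower. RRM2, a subunit of ribonucleotide reductase, was 22.7-fold lower with cantharidin and at least 31.6-fold lower with OA. Of the cyclins and kinase of the later phases, 5 were compared. With each agent 4 were lower (80%) and 0 higher, with medians of -3.11 and -2.64. CDK1, the kinase of mitosis, read 10139 in control, 151 with cantharidin and 477 with OA, 61.1-fold and 25.4-fold lower, and CCNA2, the cyclin of S and G2, was 22.5-fold and 14.7-fold lower. The part that these lists and the CDK2 and CDK4 values have in each other was not tested.

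The genes listed for the phosphorylation of CDKs are kinases, phosphatases and the CDK7 partners CCNH and MNAT1. Of 8, 1 was higher (12.5%) and 5 lower (62.5%) with cantharidin (median -1.55), the higher one being the cyclin CCNH. With OA, 2 were higher (25%) and 3 lower (37.5%, median -0.04). CDC25B, a phosphatase that activates CDKs, was 10.3-fold and 5.73-fold lower, and PKMYT1, a kinase that inhibits CDK1, 5.33-fold and 6.67-fold lower. Of 17 genes for cyclin turnover, 4 were higher (23.5%) and 7 lower (41.2%) with cantharidin (median -0.10), where 27.5% and 34.1% of all genes were called. With OA, 3 were higher (17.6%) and 4 lower (23.5%, median -0.23), no larger a share either way than over all genes. SKP2, which marks p27 for degradation, was 14.9-fold lower with cantharidin and 4.12-fold lower with OA. FBXW7, which marks cyclin E for degradation, was 2.79-fold higher with cantharidin and 9.24-fold higher with OA, and CKS1B, a partner of SKP2, was 10.6-fold and 5.54-fold lower.

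As a reference, 16 genes used for normalization gave 2 higher (12.5%) and 7 lower (43.8%) with cantharidin (median -0.37). With OA, 1 was higher (6.25%) and 8 lower (50%, median -0.62). B2M, a reference gene, read 113110 in control, 80314 with cantharidin and 128781 with OA, with log2 differences of -0.36 and -0.07. With cantharidin, the largest differences among the reference genes were those of IPO8, 4.49-fold lower, and TBP, 3.62-fold higher. With OA, HPRT1 was 3.37-fold lower. The cantharidin median of the 8 G1 genes was below that of the reference genes, and their OA median was above it.

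**Figure D5:**
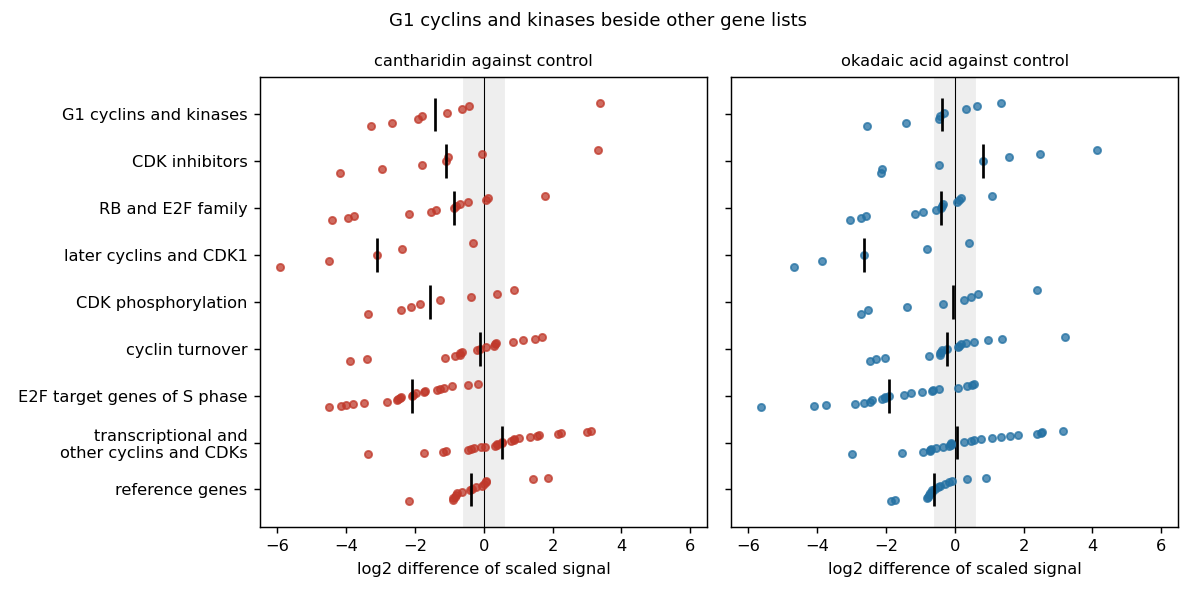
log2 difference from control of each compared gene (points, 1 gene each) of the 8 G1 genes and of 8 other lists, with cantharidin (left) and OA (right); vertical bars are medians and the shaded band is within 1.5-fold. The median of the 8 G1 genes is -1.42 with cantharidin and -0.37 with OA, and the S-phase E2F targets lie at -2.09 and -1.92.

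Genes with a similar pair of differences from control were sought among 87 genes of the pathway lists, well above background on all 3 arrays. The reference genes were left out, and the cyclins and CDKs outside G1 described at the end were included. Similarity was the Euclidean distance on the log2 scale, over the 3 arrays. For each of the 8 genes, the list gene at the smallest distance was taken. It was CDK10 for CCND1 (distance of 0.14), PCNA for CCND3 (0.12), FZR1 for CCNE2 (0.10), CDC45 for CDK2 (0.29), CDC25C for CDK4 (0.19) and CDKN2A for CCNE1 (0.44). PCNA, the replication clamp, measured 16393 in control, 4595 with cantharidin and 29030 with OA, the same ranking of arrays as for CCND3. CCND2 had no near match in the lists, with CCNL1 the nearest at 1.56. CDK6 was left out because its cantharidin signal was not well above background. With 3 points a match is easily found. Of the 14222 genes well above background on all arrays, 88 were as close to CCND1 as CDK10. For CCNE2, 86 were as close as FZR1, for CDK4, 62 as CDC25C, and for CDK2, 34 as CDC45. For CCND3, 6 were as close as PCNA, for CCNE1, 204 as CDKN2A, and for CCND2, 394 as CCNL1. CDKN2A itself read 2599 in control, 2280 with cantharidin and 9224 with OA, although the gene is known as deleted in PANC-1, and what its probe reads was not tested.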

How the data were processed

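Total RNA of 1 control, 1 cantharidin and 1 OA culture of PANC-1 cells was measured on 3 Agilent 1-colour arrays of 1 slide and 1 scan, so slide position and group cannot be told apart. The deposited scanner intensity values were made by the authors with Feature Extraction 11.0.1.1 and, per the file headers, were background-subtracted and detrended within each array, not scaled between arrays, with hg19 annotation. The authors also deposited normalized log2 values, whose method is not given in the sources used here.

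Here, log2 intensity was averaged over unflagged spots and the 75th percentile of each array was subtracted. Accessions were matched without version to RefSeq (GRCh38.p14), which named 25705 of 34041 probes, and the probe brightest on average over the arrays stood for its gene. Genes were compared if either array of the pair was well above background, and called at 1.5-fold. Calls, counts, shares and medians used the scaled signals as measured, also where 1 array of the pair was dim. For a fold printed in the text, such a dim signal was replaced by its array's floor where the floor was higher. The fold is given as "at least" where the floor was used, and otherwise rests on a dim signal. No pseudocount and no test was used. Of the lists, CCNA1 and LYZ were not matched.

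The 8 genes, the lists and the comparisons were chosen with earlier results of these data known. All 8 genes are named. Other list genes are named if past 1.5-fold and well above background on both arrays, at most 2 per list and agent by size of difference, with CDK1, CDKN1A and B2M added, and the nearest gene in pattern. A gene named for 1 agent may be given with both, and 1 gene that met the rule is not reported here. CCNH, MNAT1, CDC6, CDKN2B and CDK17 were named after their values were seen.

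Alternatives were normexp (offset 50, on median spot and background intensity), median, detected-probe or quantile scaling, no scaling, no filter, a filter on all 3 arrays, the deposited table, a 2-fold threshold, other rules for probes and spots kept despite flags. Dim signals at the floor and centring within 16 blocks were chosen after seeing the data. The counting steps were tested on simulated data. R 4.3.3 ran limma 3.58.1, and Python 3.11.15 ran pandas 2.3.3 with numpy 2.4.6, matplotlib 3.10.9 and scipy 1.17.1. Precision is limited by the number of arrays.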

Additional observations from a re-analysis of the deposited data

Results flagged for a closer look

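CCND3 and CCNE1 were picked out because their signals with cantharidin and with OA lay on opposite sides of control. The difference from control with OA exceeded that with cantharidin by 2.43 for CCND3 and by 1.75 for CCNE1 on the log2 scale, and with 1 array per group this difference was not tested. CCNE1 was within 1.5-fold of control with cantharidin, and CCND3 was 1.56-fold higher than control with OA, a call lost at 0.52 with median scaling.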

How the results depend on the processing

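Of the 14 alternatives, 13 recompute the differences (12 for CDK6), and no called difference of the 8 genes changed sign under them. Some of these, such as no filter, leave a difference as it was and could not change its sign. The count of genes higher with OA than control was 2 as reported and 1 with median scaling or with a 2-fold threshold, and the other 82 counts recomputed were within 1.5 times the reported ones. The difference between agents of CDK2 was not called and reached -0.04 with median scaling. Calls also changed for CCND2 with OA (0.59 without scaling), CDK6 with OA (-0.64 in the deposited table) and, between agents, for CDK4 (0.90 without scaling) and CCNE2 (1.24 with the median over its probes). Without scaling, the median over all genes moved from -0.16 to -0.30 for cantharidin and from 0.01 to 0.26 for OA, and with median scaling to -0.11 for OA. The cause of these changes was not tested, apart from the shift that scaling itself sets. Signals near the floor, those of CCND2 in control and with OA and of CDK6 with cantharidin, limit the size of their folds. No paired analysis was possible because each group has 1 array. Spot noise and software error cover the array and not the culture.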

Other observations

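The cyclins and CDKs that act outside G1, in transcription, splicing or other roles, were counted in the same way. Of 25 compared with cantharidin, 11 were higher and 4 lower (median 0.52), or 44% and 16%, where 27.5% and 34.1% of all genes were called. Of 24 with OA, 9 were higher and 6 lower (median 0.08), or 37.5% and 25%, near the 28.1% and 28.8% of all genes. The 11 higher with cantharidin include CDK17, which read 21.9 in control, not well above background, and 40.8 with cantharidin. Against the control floor it was at least 1.28-fold higher, so this call rests on a dim signal. With dim signals set to the floor, the cantharidin median was 0.40. CCNL2, a cyclin linked to splicing, read 399 in control, 3135 with cantharidin and 2685 with OA, 8.65-fold and 5.64-fold higher. CDK13, a kinase of RNA polymerase II, was 2.52-fold higher with cantharidin and 5.81-fold higher with OA. CCNG1, a p53 target, went the other way, from 7773 in control to 692 with cantharidin and 1159 with OA, 10.2-fold and 8.01-fold lower. CCNL1, the relative of CCNL2 nearest in pattern to CCND2, was 7.95-fold higher with cantharidin and 3.58-fold higher with OA. CCNL2 and CDK13 had 3 probes each and CCNG1 and CCNL1 had 2, and only the brightest of each is given.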
